A study of Oryza sativa Japonica Group with 8 samples.

Results

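Catalases, ascorbate peroxidases (APX) and superoxide dismutases (SOD) are the core enzymes with which plant cells remove reactive oxygen species. The 9 genes described here were chosen by their gene identifiers in the deposited gene table, as 3 catalase genes, 2 APX genes and 4 SOD genes of 37869 annotated rice genes, and none was chosen by its values. Leaf mRNA was sequenced from soil-grown rice plants without any treatment, at 28 °C and under 16 h light and 8 h dark. Their age was 4 weeks by the sample labels and the study's methods. The legend of the study's RNA sequencing figure, on overexpressing plants and their controls, gives 2 weeks. *OsGRP3*-OE plants of cultivar Nakdong carry the *OsGRP3* coding sequence under the constitutive OsCc1 promoter, and their controls were non-transgenic (NT) Nakdong plants. *OsGRP3*-KD plants of cultivar Dongjin carry an RNA interference construct against the 3′ untranslated region of *OsGRP3* under the constitutive OsGOS2 promoter, and their controls were NT Dongjin plants. Each of these 4 groups had 2 libraries. The study describes the replicates as biological, but the sources do not say which transgenic line was sequenced or how many plants made up a library, and the p-values measure only the spread between these libraries. OsGRP3 is a glycine-rich RNA-binding protein, and the comparisons ask how the mRNA levels of these scavenging enzymes differ when its gene is overexpressed or knocked down.

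The 3 classes act on linked reactive oxygen species. SOD enzymes turn superoxide into hydrogen peroxide and carry copper and zinc, iron or manganese as the metal. Catalases split hydrogen peroxide in the peroxisome, where photorespiration makes much of it in leaves, and APX enzymes reduce it with ascorbate, which is then recycled by further reductases.

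The NT Dongjin libraries stood apart from the other 6 libraries in ways that touch every comparison that uses them. The total count per library was between 25836946 and 38940899. Over 6883 genes with a single transcript, the coverage of the first exon relative to the last had a median log2 value of -0.87 and -0.80 in NT Dongjin, and of -2.90 to -2.51 in the other 6 libraries, which thus had more of their reads near 3′ ends. The clock gene Os08g0157600 (*LHY*, a morning component of the circadian clock) had 113 and 110.1 TPM (transcripts-per-million, a level per transcript length) in *OsGRP3*-KD, against 1807 and 1794 TPM in NT Dongjin. Os02g0618200, whose Arabidopsis counterpart TOC1 is an evening component, had 13.9 and 14.2 TPM in *OsGRP3*-KD, against 1.23 and 1.496 TPM in NT Dongjin. A gene is said to be called here when it changed by at least 2-fold with an adjusted p under 0.05 over the 24383 genes tested. In *OsGRP3*-KD against NT Dongjin, 23.8% of all genes tested were called higher and 13.8% lower, and the called counts that follow stand beside these shares. Of 8 clock genes, 1 was called higher and 1 lower in *OsGRP3*-KD, and their summed level was 1601 to 1640 TPM, against 3117 to 3128 TPM in NT Dongjin. Of 5 leaf markers (small subunits of Rubisco and chlorophyll a-b binding proteins), 4 were called higher in *OsGRP3*-KD, with summed levels of 82000 to 91740 TPM, against 35830 to 36250 TPM in NT Dongjin. None of these 5 was at 0 in any group, and their sums in *OsGRP3*-OE, at 76470 to 90040 TPM, spanned the 86490 to 86700 TPM of NT Nakdong. Among 3 root markers, the root-specific gene RCc3 (Os02g0662000) and the silicon efflux transporter gene Lsi2 (Os03g0107300) were at 0 in both *OsGRP3*-KD and both NT Dongjin libraries, and the summed level was 9.16 to 10.2 TPM in *OsGRP3*-KD, against 12.2 to 13.4 TPM in NT Dongjin. A list for dividing tissue was drawn by keyword for histone H3, histone H4 and B-type cyclins, and 3 of its 39 genes are neither, namely Os01g0233400 and Os12g0298600, described as histone H4 acetyltransferases, and Os01g0757500, similar to a calcyclin-binding protein. The list summed to 2745 to 2843 TPM in *OsGRP3*-KD, against 2787 to 2826 TPM in NT Dongjin, and 15 of 31 tested were called higher and 1 lower in *OsGRP3*-KD, among them 14 of the 28 tested histone and cyclin genes called higher. In the list 7 genes were at 0 in both *OsGRP3*-KD libraries and 10 in both NT Dongjin libraries. This set of differences and the knockdown cannot be told apart, since both NT Dongjin libraries carry it and no *OsGRP3*-KD library does. The part of these markers in the results below was not tested. In whole leaves, fewer cells of a type and less RNA per cell cannot be told apart either.

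*OsGRP3* itself (Os03g0670700) had 2047 and 2736 TPM in *OsGRP3*-OE, against 1774 and 1687 TPM in NT Nakdong, and 497 and 428 TPM in *OsGRP3*-KD, against 722 and 711 TPM in NT Dongjin. The groups of each pair did not overlap. Neither change passed the test as fitted. The log2 fold change in *OsGRP3*-OE was 0.51, with a standard error of 0.12 and an adjusted p of 0.0666, and that in *OsGRP3*-KD was -0.26, with a standard error of 0.12 and an adjusted p of 0.0761. All such values come from the quasi-likelihood F test of edgeR, with p adjusted by Benjamini and Hochberg's method. Both crossed an adjusted p of 0.05 under some alternatives. In *OsGRP3*-OE the adjusted p was 0.000125 by DESeq2, 0.0125 without the filter on low counts and 0.00588 without *OsGRP3*-OE replicate 1, where the log2 value was 0.67. In *OsGRP3*-KD it was 0.0106 by DESeq2, 0.0479 with median-of-ratios size factors, 0.0462 without the filter, 0.0158 with the Dongjin libraries alone, and 0.0155 and 0.0154 without an *OsGRP3*-OE library. Without the 3′-most exon of each transcript, in a fit that also set the library totals and scaling anew, the value in *OsGRP3*-KD was 0.04. Its sign thus turned, and the parts of the exon and of the scaling in this were not tested.

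All 9 genes were well measured, with estimated counts between 1183 and 97771 in a library, and all passed the filter on low counts. Compared per transcript length, CATA and CATC had the highest levels of the 9 genes in every library, with CATA close to APX2 in NT Dongjin. CATC ranked between 42 and 143 of the 37869 genes by TPM in the 8 libraries, and CATA between 67 and 298. APX2 ranked between 235 and 324, APX1 between 280 and 421, and the copper/zinc SOD gene Os03g0351500 between 288 and 384. The copper/zinc SOD gene Os07g0665200 ranked between 496 and 710, Mn-SOD between 1008 and 1680, and CATB between 1558 and 2252. Fe-SOD was the least abundant of the 9, with ranks between 2524 and 3717. In TPM, the 3 catalase genes summed to 1708 and 1596 in *OsGRP3*-OE, against 1911 and 2357 in NT Nakdong, and to 1849 and 1938 in *OsGRP3*-KD, compared with 2589 and 2710 in NT Dongjin. The class sum was thus lower in the transgenic than in the NT libraries of each cultivar. The sum of 2357 includes CATA, of whose count 30.1% came from its last exon in NT Nakdong replicate 2, against 0.79% and 0.81% in *OsGRP3*-OE. By group mean TPM the median log2 ratio of all genes was itself -0.25 for *OsGRP3*-KD over NT Dongjin, and -0.06 for *OsGRP3*-OE over NT Nakdong. The 2 APX genes summed to 663 and 686 TPM in *OsGRP3*-OE, against 746 and 710.1 TPM in NT Nakdong, and to 607 and 705 TPM in *OsGRP3*-KD, against 656 and 620.04 TPM in NT Dongjin. The 4 SOD genes summed to 608 and 704 TPM in *OsGRP3*-OE, against 698 and 689 TPM in NT Nakdong, and to 677 and 669 TPM in *OsGRP3*-KD, against 705 and 689 TPM in NT Dongjin. No class sum was tested.

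**Figure D1:**
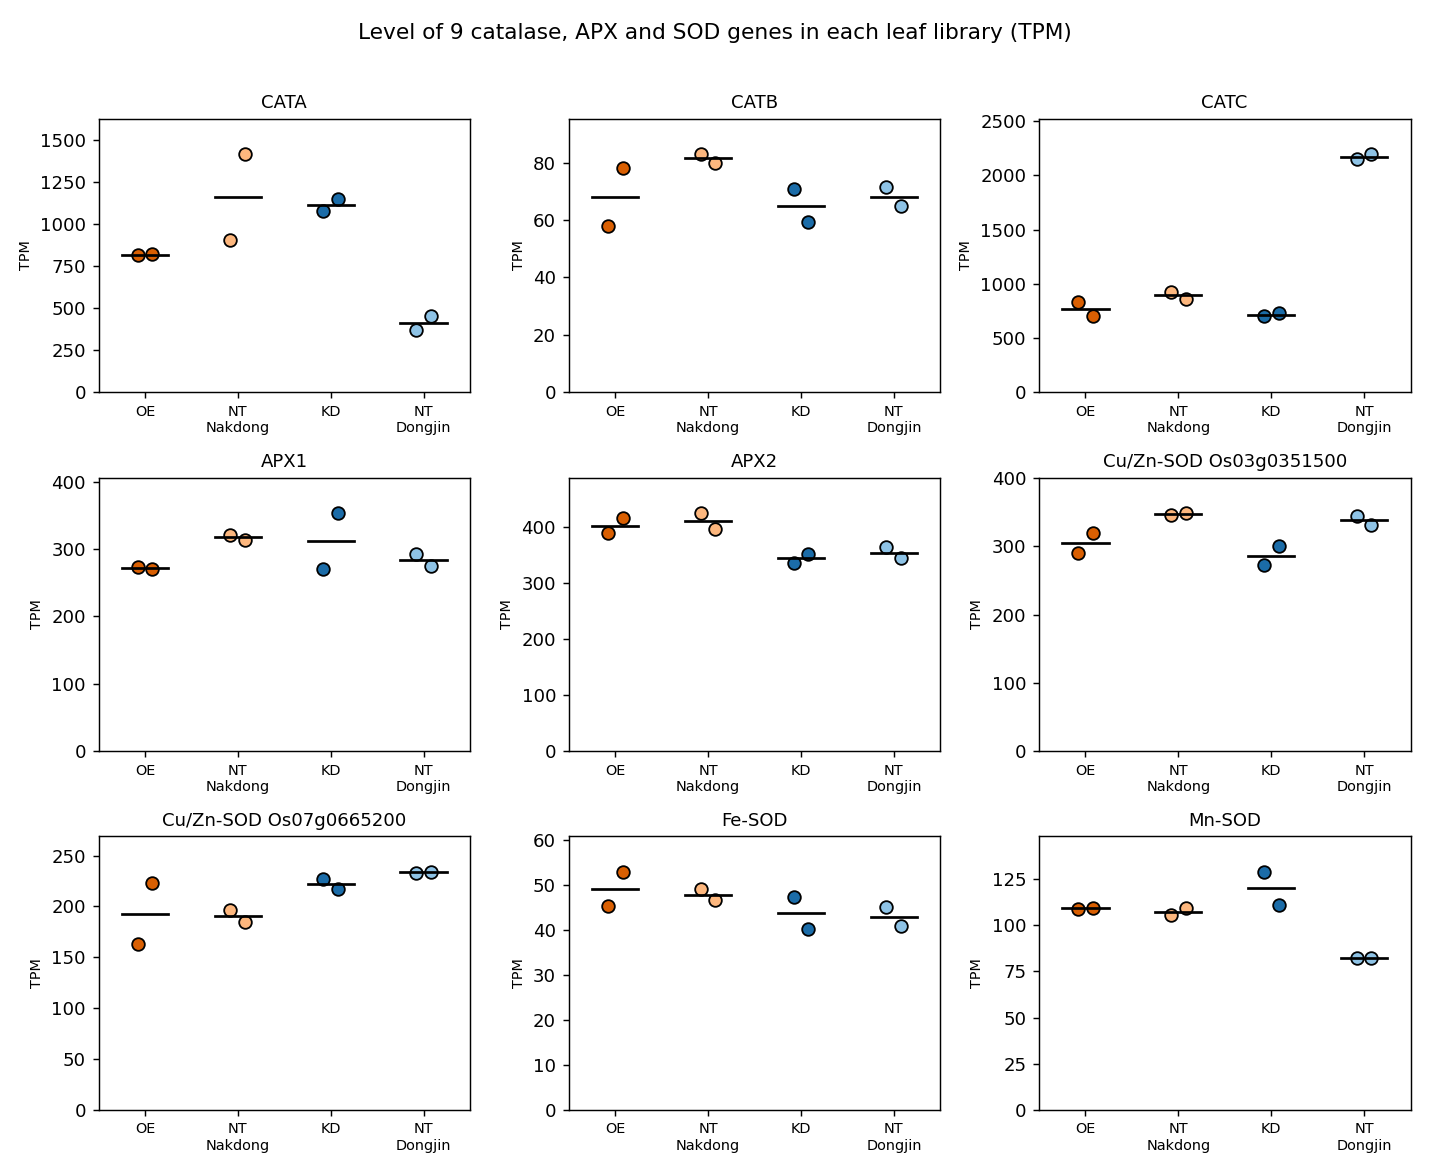
Level of each gene in TPM in the 8 leaf libraries, with *OsGRP3*-OE left of NT Nakdong and *OsGRP3*-KD left of NT Dongjin. Points are libraries and bars are means of 2. CATA and CATC differ most between *OsGRP3*-KD and NT Dongjin, in opposite directions, while the *OsGRP3*-OE and NT Nakdong libraries lie close together in most panels.

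Overexpression of *OsGRP3* was accompanied by small differences in these genes, none of which passed the test. In *OsGRP3*-OE against NT Nakdong, 0 of 9 genes were called higher and 0 lower, and across all genes tested 0.619% were called higher and 0.853% lower. At any size of change 0 of 9 passed an adjusted p under 0.05, against 2.34% of all genes. At an unadjusted p under 0.05 the count was also 0 of 9 by edgeR's test, beside 3432 of the 24383 genes tested. DESeq2's Wald test called 0. The median log2 fold change of the 9 genes was -0.12, and that of all genes was 0.00. The sign differed among the genes, with the 3 catalases, APX1 and the copper/zinc SOD gene Os03g0351500 below 0 and APX2, the other copper/zinc SOD, Fe-SOD and Mn-SOD above 0. In group mean TPM, APX2 was at 0.98 times its NT Nakdong level, so its sign depends on the scaling.

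The 3 catalase genes of rice encode peroxisomal enzymes. CATA (Os02g0115700) lies on the minus strand of chromosome 2 of IRGSP-1.0 at chr2:825041-827640 and has 3 annotated transcripts. It had 815 and 819 TPM in *OsGRP3*-OE, against 907 and 1413 TPM in NT Nakdong. Both *OsGRP3*-OE libraries lay below both NT Nakdong libraries, which differed from each other by more than the groups did. The log2 fold change was -0.45 (standard error 0.20, adjusted p = 0.366 from edgeR's test). It was -0.08 without NT Nakdong replicate 2 and -0.74 without NT Nakdong replicate 1, so 1 library decided its size.

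That library differed from its replicate at the 3′ end of CATA. The 4 exons of its main transcript, Os02t0115700-01, which held 98.2% to 99.4% of the TPM of the gene, end with an exon of 383 bases at chr2:825046-825428. Coverage of this exon, divided by the library total and put on the scale of CPM (counts-per-million), was 1.69 and 1.61 in *OsGRP3*-OE, against 1.93 and 188 in NT Nakdong, and 1.77 and 192 in *OsGRP3*-KD, compared with 0.14 and 24.5 in NT Dongjin. The exon was therefore nearly empty in 5 libraries and covered in the second libraries of NT Nakdong, *OsGRP3*-KD and NT Dongjin. An annotated antisense gene, Os02g0115801, overlaps the 3′ part of CATA. The file headers give a strand-specific setting, while the labels and the study's methods name different library kits. Reads of these genes may thus not be fully separated. The part of this in the coverage of the last exon was not tested. The last exon made up 30.1%, 36.6% and 14.9% of the count of CATA in NT Nakdong replicate 2, *OsGRP3*-KD replicate 2 and NT Dongjin replicate 2, and 0.21% to 0.81% in the other 5 libraries. The count of CATA thus covers unequal parts of the gene in different libraries. A fit to counts without the 3′-most exon of each transcript was added after this was seen. That fit set library totals and scaling anew from the remaining counts, so its values also shift with the scaling. Without that exon CATA had 3459 and 3387 CPM (counts-per-million) in *OsGRP3*-OE, against 3653 and 3953 CPM in NT Nakdong. The log2 value was -0.15 (standard error 0.12, adjusted p = 0.691 by edgeR). The *OsGRP3*-KD libraries had 4282 and 3428 CPM, against 879 and 920.5 CPM in NT Dongjin.

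**Figure D2:**
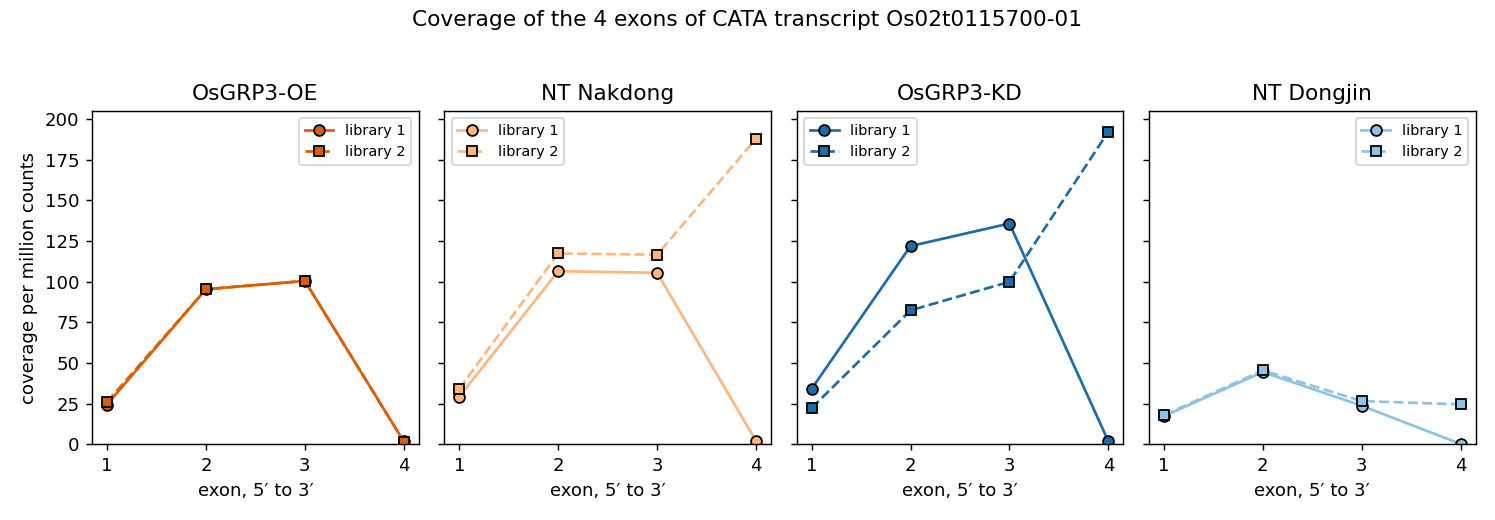
Coverage of the 4 exons of CATA transcript Os02t0115700-01, from the 5′ to the 3′ end, divided by the library total and on the CPM scale. Solid lines are replicate 1 and dashed lines replicate 2. The fourth exon is at 188 in NT Nakdong replicate 2 and at 192 in *OsGRP3*-KD replicate 2, near 0 in 5 libraries, and exons 2 and 3 are lower in both NT Dongjin libraries than in the other 6.

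CATB and CATC varied less in the Nakdong plants. CATB (Os06g0727200, plus strand, chr6:30944198-30948176) had 57.9 and 78.1 TPM in *OsGRP3*-OE, against 82.9 and 80.05 TPM in NT Nakdong. CATC (Os03g0131200, minus strand, chr3:1787679-1790806), known as the main photorespiratory catalase of rice leaves, had 836 and 699 TPM in *OsGRP3*-OE, against 922 and 864 TPM in NT Nakdong. The *OsGRP3*-OE libraries lay below the NT Nakdong libraries for both genes, and the gap between the groups was smaller than the gap between the *OsGRP3*-OE replicates. The log2 fold change was -0.20 for CATB (standard error 0.12, adjusted p = 0.495) and -0.15 for CATC (standard error 0.12, adjusted p = 0.650) by edgeR. Without *OsGRP3*-OE replicate 2 the value for CATC was 0.01.

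APX1 and APX2 encode the cytosolic APX enzymes. APX1 (Os03g0285700, plus strand, chr3:9843336-9846670) had 273 and 270.1 TPM in *OsGRP3*-OE, against 321 and 313 TPM in NT Nakdong, without overlap between the groups. Its log2 fold change was -0.16 (standard error 0.14, adjusted p = 0.689 by edgeR). APX2 (Os07g0694700, minus strand, chr7:29584033-29586303) had 389.7 and 416 TPM in *OsGRP3*-OE, against 425 and 397 TPM in NT Nakdong, and the groups overlapped. The ratio of APX2 to APX1 in TPM was 1.43 and 1.54 in *OsGRP3*-OE, against 1.33 and 1.27 in NT Nakdong. This ratio was not tested.

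The log2 fold changes of the SOD genes in *OsGRP3*-OE against NT Nakdong were between -0.12 and 0.10, with adjusted p values from 0.613 to 0.829 by edgeR. Among the copper/zinc enzymes, Os03g0351500 (plus strand, chr3:13181396-13184453) had 290.4 and 319 TPM in *OsGRP3*-OE, against 346 and 349 TPM in NT Nakdong, and Os07g0665200 (minus strand, chr7:28075600-28077583) had 164 and 223 TPM in *OsGRP3*-OE, against 197 and 184 TPM in NT Nakdong. Only the first of these pairs did not overlap. Fe-SOD (Os06g0143000, plus strand, chr6:2256869-2260898) had 45.5 and 53.0 TPM in *OsGRP3*-OE, against 49.1 and 46.7 TPM in NT Nakdong. Mn-SOD (Os05g0323900, plus strand, chr5:15046751-15051399), the mitochondrial enzyme, had 108.9 and 109.6 TPM in *OsGRP3*-OE, against 105.5 and 109.2 TPM in NT Nakdong. The copper/zinc SOD gene Os03g0351500 held the largest share of the TPM of these 4 SOD genes in every library, with 45.3% to 47.7% in *OsGRP3*-OE and 49.6% to 50.6% in NT Nakdong.

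In *OsGRP3*-KD plants CATA was 3.45-fold higher and CATC 2.37-fold lower than in NT Dongjin plants, and Mn-SOD was 1.86-fold higher. The remaining 6 genes differed by at most 1.41-fold. Of the 9 genes, 1 was called higher and 1 lower, while 23.8% of all genes tested were called higher and 13.8% lower. At any size of change 6 of 9 passed an adjusted p under 0.05, 5 higher and 1 lower, against 62.9% of all genes, so the share of these genes that passed was near that of the genome. The median log2 fold change of the 9 genes was 0.31, and that of all genes was 0.14. The scaling matters for these small differences. By group mean TPM the median over all genes was -0.25, and CATB, APX2 and both copper/zinc SOD genes, all above 0 in the fit, were at 0.95, 0.97, 0.85 and 0.95 times their NT Dongjin level. CATA, APX1, Fe-SOD and Mn-SOD were higher and CATC lower in *OsGRP3*-KD on both scales.

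CATA had 1075 and 1149.6 TPM in *OsGRP3*-KD, against 368 and 451 TPM in NT Dongjin. All 4 values of the Dongjin plants fell into separate ranges by group. The log2 fold change was 1.79 (standard error 0.21, adjusted p = 7.86e-05 by edgeR), and it stayed between 1.64 and 1.95 when each library was left out. It was 2.10 (standard error 0.13, adjusted p = 7.47e-07 by edgeR) without the 3′-most exon of each transcript, which was nearly empty for CATA in some libraries. With that exon alone the call was lost, at a value of 2.43 with a standard error of 2.10 and an adjusted p of 0.367 by edgeR. Exon by exon, coverage on the CPM scale of the second exon was 122 and 82.3 in *OsGRP3*-KD, compared with 44.4 and 45.4 in NT Dongjin, and that of the third exon was 136 and 99.9 in *OsGRP3*-KD, compared with 23.7 and 26.5 in NT Dongjin. In the first exon, of 85 bases, coverage was 34.1 and 22.2 in *OsGRP3*-KD, compared with 17.3 and 17.9 in NT Dongjin. The difference had the same direction in these 3 exons and was smallest in the 5′-most one. It was largest in the third exon, which was covered less than the second in NT Dongjin and more in *OsGRP3*-KD. Coverage of CATA thus stayed unequal between the groups without the 3′-most exon. The parts of this and of the new scaling in the value of 2.10 were not tested.

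CATC showed the opposite direction, with 703 and 729.7 TPM in *OsGRP3*-KD, against 2149 and 2195 TPM in NT Dongjin. The NT Dongjin libraries held the highest levels of any catalase in the series. The log2 fold change was -1.25 (standard error 0.13, adjusted p = 3.47e-05 by edgeR), and it stayed between -1.34 and -1.16 when each library was left out. It was -1.07 (adjusted p = 7.44e-05) without the 3′-most exon and -0.78 (adjusted p = 0.00107) with that exon alone, which is under 2-fold and no longer a call. The gene has 2 annotated transcripts, and Os03t0131200-02 held over 99% of its TPM in all 8 libraries. CATB had 70.9 and 59.2 TPM in *OsGRP3*-KD, against 71.4 and 64.9 TPM in NT Dongjin, and the groups overlapped, with a log2 value of 0.28 (standard error 0.12, adjusted p = 0.0620 by edgeR). Its transcript Os06t0727200-01 held 17.3% and 21.8% of its TPM in *OsGRP3*-KD, compared with 54.6% and 29.3% in NT Dongjin, so the NT Dongjin replicates differed from each other more than the groups did.

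The catalase with the larger share therefore differed between the Dongjin groups. CATA made up 58.1% and 59.3% of the summed catalase TPM in *OsGRP3*-KD, compared with 14.2% and 16.6% in NT Dongjin, and CATC made up 38.0% and 37.6% in *OsGRP3*-KD, compared with 83.0% and 81.0% in NT Dongjin. The ratio of CATC to CATA in TPM was 0.65 and 0.63 in *OsGRP3*-KD, compared with 5.84 and 4.87 in NT Dongjin. Without the 3′-most exons the ratio in CPM was 0.43 and 0.61 in *OsGRP3*-KD, compared with 4.63 and 4.52 in NT Dongjin. In the Nakdong plants the ratio in TPM was 1.03 and 0.85 in *OsGRP3*-OE, against 1.02 and 0.61 in NT Nakdong. CATB never exceeded 4.89% of the catalase TPM.

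**Figure D3:**
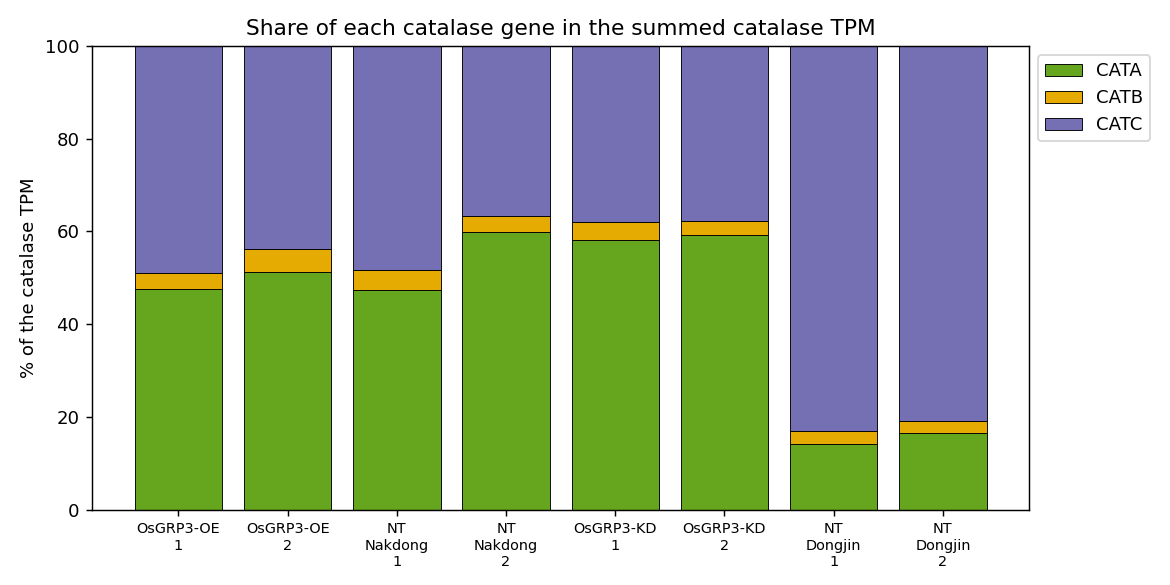
Share of CATA, CATB and CATC in the summed catalase TPM of each library. Bars are single libraries. CATC makes up 83.0% and 81.0% in NT Dongjin and 36.6% to 48.9% in the other 6 libraries, and CATB makes up 2.39% to 4.89% throughout.

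Among the APX genes, APX1 had 271 and 353 TPM in *OsGRP3*-KD, against 292 and 275 TPM in NT Dongjin. The *OsGRP3*-KD replicates lay on either side of NT Dongjin. In the fit to counts, APX1 was higher by 0.50 on the log2 scale (standard error 0.14, adjusted p = 0.0142 by edgeR). APX2 had 337 and 352 TPM in *OsGRP3*-KD, against 364 and 345 TPM in NT Dongjin, and in the fit it was higher by 0.31 (standard error 0.09, adjusted p = 0.0127). The groups overlapped in TPM for both genes. The value for APX1 rested on 1 library, with 0.22 (adjusted p = 0.0572) without *OsGRP3*-KD replicate 2 and 0.73 without *OsGRP3*-KD replicate 1. It also missed the threshold without NT Dongjin replicate 1 (adjusted p = 0.0542), without NT Dongjin replicate 2 (0.0852) and with quantile-normalized FPKM (0.26, adjusted p = 0.472). APX2 missed it without *OsGRP3*-KD replicate 2 (0.21, adjusted p = 0.0663) and without NT Dongjin replicate 1 (0.34, adjusted p = 0.0538), and was at 0.28 without NT Dongjin replicate 2, where it missed it too. Values for both were larger without the 3′-most exon, at 0.86 for APX1 and 0.71 for APX2.

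Mn-SOD was the SOD gene that differed most between the Dongjin groups. It had 129 and 111 TPM in *OsGRP3*-KD, against 82.2 and 82.4 TPM in NT Dongjin, so the groups did not overlap. Its log2 fold change was 0.89 (standard error 0.08, adjusted p = 1.17e-05 by edgeR), below the 2-fold threshold, and 1.25 without the 3′-most exon, which passed it. Fe-SOD had 47.3 and 40.3 TPM in *OsGRP3*-KD, against 45.1 and 40.9 TPM in NT Dongjin. These ranges overlapped, while the fit to counts gave 0.38 (standard error 0.09, adjusted p = 0.00614 by edgeR). The copper/zinc SOD gene Os03g0351500 had 273 and 299.9 TPM in *OsGRP3*-KD, against 344 and 332 TPM in NT Dongjin, and a log2 fold change of 0.12 (adjusted p = 0.308 by edgeR). Os07g0665200 had 227 and 217 TPM in *OsGRP3*-KD, against 233 and 234 TPM in NT Dongjin, and a log2 fold change of 0.28 (adjusted p = 0.0578 by edgeR). Both copper/zinc genes were thus below NT Dongjin in TPM and above it in the fit, and neither passed the test. Mn-SOD made up 19.1% and 16.6% of the TPM of the 4 SOD genes in *OsGRP3*-KD, compared with 11.7% and 11.96% in NT Dongjin.

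Coverage along these genes followed that of the libraries. For the 8 genes other than CATA, the last exon of a transcript made up a smaller part of the count in both NT Dongjin libraries than in each of the other 6. Its part was 12.2% and 12.04% for CATB in NT Dongjin, against 23.5% to 28.3% in the other 6 libraries, and 16.4% in both NT Dongjin libraries for CATC, against 28.2% to 36.4%. For Mn-SOD it was 27.0% and 27.4% in NT Dongjin, against 32.6% to 37.0%, and for Fe-SOD 32.3% and 31.1%, against 48.8% to 56.8%. When the 3′-most exon was left out and the scaling set anew, 9 of 9 genes passed an adjusted p under 0.05 at any size. Beside them, 11113 of all 17567 genes tested passed. In that fit 3 of 9 were called, with Mn-SOD as the third, beside 6946 of all genes. With the 3′-most exon alone, 0 of 9 were called, beside 7571 of 23305 genes. The count that passed at any size was 3 when quantile-normalized FPKM values were compared gene by gene, beside 8076 of 30367 genes. DESeq2's Wald test gave 2 calls and 6 genes at any size, beside 9081 and 14554 of 24383 genes.

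**Figure D4:**
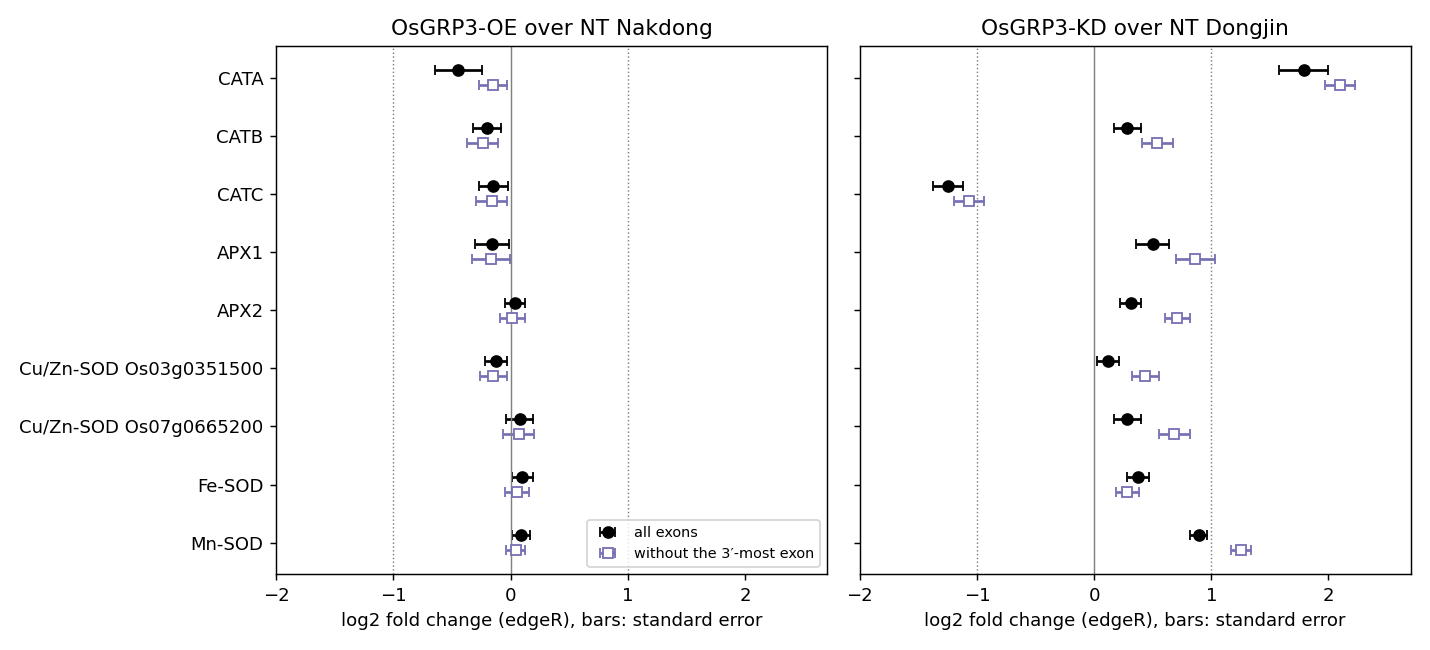
Log2 fold change of each gene in *OsGRP3*-OE over NT Nakdong (left) and in *OsGRP3*-KD over NT Dongjin (right), from edgeR, with the standard error as bars. Filled circles use all exons. Open squares leave out the 3′-most exon of each transcript, with the scaling set anew, and dotted lines mark 2-fold. On the right, CATA is at 1.79 and 2.10, CATC at -1.25 and -1.07, and Mn-SOD at 0.89 and 1.25.

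The response in both lines was compared directly by the difference of their log2 fold changes, *OsGRP3*-OE minus *OsGRP3*-KD, which both NT groups enter. CATC was called with a higher value in *OsGRP3*-OE, by 1.10 (standard error 0.18, adjusted p = 0.000898 by edgeR), and CATA with a lower one, by -2.23 (standard error 0.29, adjusted p = 0.000255). These are 1 of 9 in each direction, against 12.0% of all genes called higher and 22.0% called lower. At any size 5 of 9 passed, against 51.1% of all genes. Besides these catalases they were CATB at -0.49 (adjusted p = 0.0371), APX1 at -0.66 (adjusted p = 0.0244) and Mn-SOD at -0.80 (adjusted p = 0.000298), all by edgeR. The number called was 1 without *OsGRP3*-OE replicate 1, where CATC was at 0.92, and 0 with the 3′-most exon alone. The number that passed at any size was 3 without either NT Nakdong or either NT Dongjin library, and 8 without the 3′-most exon. In that last fit, which has its own scaling, 8839 of 17567 genes tested passed at any size and 6208 were called. Of the 9 genes 3 were called. CATC was at 0.91 (adjusted p = 0.0027 by edgeR) and no longer a call. APX1 at -1.03 (adjusted p = 0.0046) and Mn-SOD at -1.21 (adjusted p = 3.73e-05) joined CATA at -2.25.

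Since the NT Dongjin libraries stood apart, the 9 genes were also compared across the cultivars. These comparisons share libraries with those above and with each other, and that of *OsGRP3*-KD with NT Nakdong mixes cultivar with the transgene, so they add no independent evidence. In NT Dongjin against NT Nakdong, 0 of 9 genes were called higher, against 14.3% of all genes, and 1 of 9, CATA, was called lower, against 24.7% of all genes. At any size 8 of 9 passed an adjusted p under 0.05 by edgeR, against 64.6% of all genes, 1 higher and 7 lower. CATA had a log2 fold change of -1.81 (adjusted p = 7.15e-05), and CATC was higher by 0.97 (adjusted p = 0.000149), just under 2-fold. Mn-SOD had a log2 fold change of -0.69, CATB of -0.57, APX2 of -0.52, APX1 and Fe-SOD of -0.47, and the copper/zinc SOD gene Os03g0351500 of -0.35. Os07g0665200 did not pass, at -0.02, and by TPM it was at 1.22 times its NT Nakdong level. Without NT Nakdong replicate 1 the number called was 2, with CATC at 1.03.

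*OsGRP3*-KD against NT Nakdong, which does not use the levels of the NT Dongjin libraries, gave small differences. The NT Dongjin libraries still enter its spread, filter and scaling, since all groups share the fit. By edgeR 0 of 9 genes were called higher and 0 lower, against 1.36% and 3.04% of all genes, and 0 of 9 passed at any size, against 8.58%. DESeq2's Wald test also gave 0. By edgeR 5 of 9 had an unadjusted p under 0.05, beside 6001 of the 24383 genes tested. CATA was at -0.02 (standard error 0.20, adjusted p = 0.966) and CATC at -0.27 (standard error 0.12, adjusted p = 0.218), and the largest of the other values was -0.29 for CATB. Without *OsGRP3*-KD replicate 2, 1 gene passed at any size, the copper/zinc SOD gene Os03g0351500 at -0.37 (adjusted p = 0.0465 by edgeR).

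The order of the 4 groups by mean TPM differed among the genes. CATA was highest in NT Nakdong, followed by *OsGRP3*-KD, *OsGRP3*-OE and NT Dongjin, and only the first neighbours in this order overlapped. CATC was highest in NT Dongjin and lower in NT Nakdong, *OsGRP3*-OE and *OsGRP3*-KD, of which the last pair overlapped. For Mn-SOD the order was *OsGRP3*-KD, *OsGRP3*-OE, NT Nakdong and NT Dongjin, with *OsGRP3*-OE and NT Nakdong overlapping. CATB, APX1, APX2 and the copper/zinc SOD gene Os03g0351500 were highest in NT Nakdong, Fe-SOD in *OsGRP3*-OE and Os07g0665200 in NT Dongjin, and for Fe-SOD every pair of neighbours overlapped.

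The genes with the most similar profile were found by the root-mean-square difference of log2 CPM over the 8 libraries, after each gene's own mean was removed, among 5087 other genes with a mean log2 CPM of at least 5. These values are a description of 8 libraries that share 4 groups. CATA was closest to Os09g0433800, described as similar to the senescence-associated protein SAG102, with a difference of 0.17, against a median of 0.81 over all genes searched, and then to Os08g0536400, a hypothetical protein, at 0.22. CATC was closest to Os03g0774300, a HAD superfamily hydrolase, at 0.06, against a median of 0.52, and to Os03g0712700, similar to a cytoplasmic phosphoglucomutase, at 0.06. Mn-SOD was closest to Os04g0393300, a membrane-anchored ubiquitin-fold protein, at 0.04, and to Os03g0123100, similar to the SUMO conjugating enzyme SCE1, at 0.04, against a median of 0.46. For the other 6 genes the closest genes were Os04g0660400 and Os05g0230900 for CATB, Os06g0643100 and Os08g0558800 for APX1, Os03g0134300 and Os09g0267600 for APX2, Os01g0361000 and Os06g0133800 for the copper/zinc SOD gene Os03g0351500, Os08g0519400 and Os04g0537900 for Os07g0665200, and Os10g0363600 and Os03g0767800 for Fe-SOD. Their differences were between 0.03 and 0.09.

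Other genes of the same pathways were examined as lists. In *OsGRP3*-OE against NT Nakdong, 0 of 9 other APX genes, 0 of 7 other SOD and copper chaperone genes, 0 of 10 genes of ascorbate and glutathione recycling, 0 of 11 thiol peroxidase genes and 0 of 6 glycolate oxidase genes were called or passed at any size by edgeR. At an unadjusted p under 0.05 there was 1 gene in each list except the thiol peroxidases, which had 0, beside 3432 of all 24383 genes. Their medians were between -0.05 and 0.08 on the log2 scale.

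In *OsGRP3*-KD against NT Dongjin, genes of these lists were called in both directions, beside the 23.8% of all genes called higher and 13.8% called lower. Of the 9 other APX genes, 4 were called higher and 0 lower, with a median log2 fold change of 0.56, against 0.14 for all genes. Os04g0223300, a peroxisome-type APX gene, had 8.00 and 6.78 TPM in *OsGRP3*-KD, against 0.59 and 0.56 TPM in NT Dongjin, and a log2 value of 4.03 (standard error 0.20, adjusted p = 6.81e-07 by edgeR). Os08g0522400, similar to APX6, had 42.7 and 46.0 TPM in *OsGRP3*-KD, against 9.14 and 9.91 TPM in NT Dongjin. Os04g0602100, with a plant APX domain, had 194 and 199 TPM in *OsGRP3*-KD, against 62.1 and 62.0 TPM in NT Dongjin. In the last 3 genes named the groups were far apart, which was not so for APX1 and APX2.

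Of 7 other SOD and copper chaperone genes, 4 were called higher and 0 lower, with a median of 1.24. Not all 7 are plain SOD genes. Os12g0613250, described by BTB/POZ, copper/zinc SOD and NPH3 domains, had 0.15 and 0 TPM in *OsGRP3*-KD, against 0.05 and 0.08 TPM in NT Dongjin. The genes called higher include the nectarin-like Os01g0249200 and Os01g0284500. Os01g0249200, described as similar to nectarin 1, had 163 and 116 TPM in *OsGRP3*-KD, against 10.3 and 10.9 TPM in NT Dongjin, and Os01g0284500, described alike, had 70 and 29 counts in *OsGRP3*-KD, against 0 and 6 counts in NT Dongjin. Such similar genes may share reads. Os08g0561700, the chloroplast copper/zinc SOD gene, had 258 and 263 TPM in *OsGRP3*-KD, against 93.6 and 97.1 TPM in NT Dongjin, and a log2 value of 1.80 (standard error 0.10, adjusted p = 9.86e-07 by edgeR). The copper chaperone gene Os04g0573200, whose product loads copper into these enzymes, was at -0.07 (adjusted p = 0.432).

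Among the 10 genes of ascorbate and glutathione recycling, 2 were called higher and 2 lower, with a median of -0.56. The cytosolic glutathione reductase gene Os02g0813500, which regenerates the glutathione used to recycle ascorbate, had 48.7 and 48.2 TPM in *OsGRP3*-KD, against 144 and 141 TPM in NT Dongjin (log2 fold change -1.21, adjusted p = 2.08e-06 by edgeR). Os06g0232600, similar to dehydroascorbate reductase, had 294 and 197 TPM in *OsGRP3*-KD, against 153 and 149.8 TPM in NT Dongjin. Os02g0707000, similar to a monodehydroascorbate reductase, had 25 and 17 counts in *OsGRP3*-KD and 0 in both NT Dongjin libraries, at least 14.4-fold higher against a floor of 3 counts over the group. Of 11 thiol peroxidase genes, 2 were called higher and 0 lower, with a median of 0.02. They were Os06g0196300, similar to peroxiredoxin Q, at 2.41 (adjusted p = 6.16e-07), and Os02g0537700, similar to the chloroplast 2-Cys peroxiredoxin BAS1, at 1.66 (adjusted p = 4.25e-06), by edgeR.

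Glycolate oxidase makes the peroxisomal hydrogen peroxide of photorespiration. Of 6 glycolate oxidase genes, 2 were called higher and 0 lower in *OsGRP3*-KD, with a median of 0.60. Os04g0623500 had 20.5 and 12.7 TPM in *OsGRP3*-KD, against 4.89 and 5.09 TPM in NT Dongjin, and Os07g0616500 had 44.9 and 43.9 TPM in *OsGRP3*-KD, against 22.8 and 20.3 TPM in NT Dongjin. The most abundant of the 6 had the direction of CATC and passed an adjusted p under 0.05 below 2-fold, and they are named after their values were seen. Os03g0786100 had 1403 and 1388 TPM in *OsGRP3*-KD, against 2696 and 2720.0 TPM in NT Dongjin (log2 fold change -0.60, adjusted p = 0.000893 by edgeR), and Os07g0152900 had 610.3 and 623 TPM in *OsGRP3*-KD, against 1202 and 1167 TPM in NT Dongjin (-0.62, adjusted p = 0.00074). The other 2, Os04g0623600 at 0.41 (adjusted p = 0.0019) and Os08g0198700 at 0.79 (adjusted p = 2.95e-05), were higher and passed below 2-fold.

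**Figure D5:**
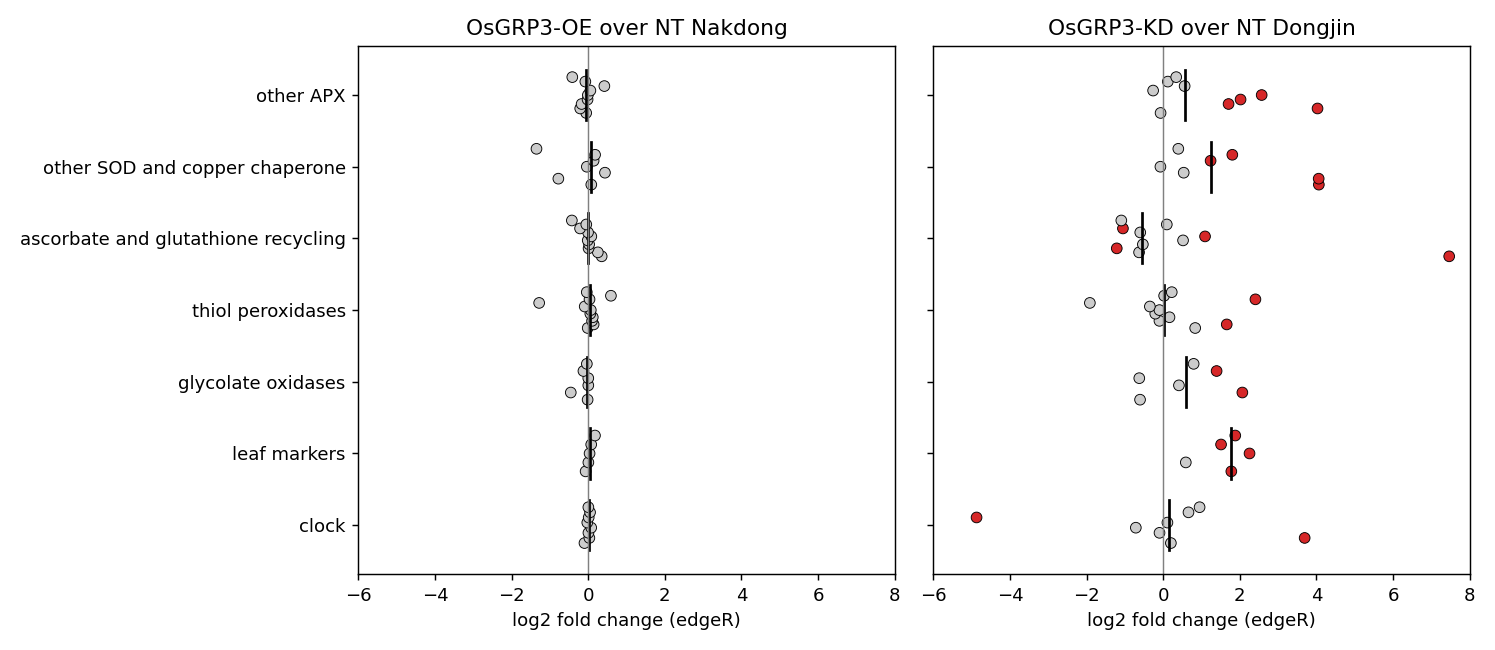
Log2 fold change (edgeR) of each tested gene of the 5 pathway lists, the leaf markers and the clock genes in *OsGRP3*-OE over NT Nakdong (left) and in *OsGRP3*-KD over NT Dongjin (right). Points are genes, red ones are called, and black bars are list medians. Among the genes drawn, the point farthest to the right is Os02g0707000, which had 0 counts in NT Dongjin, so its fitted value has no bound, and no gene is red on the left.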

How the data were processed

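Leaf mRNA of 4 groups with 2 libraries each was analysed. Estimated counts were deposited by the authors as StringTie coverage times transcript length over 101, rounded up and summed by gene. They replaced the plain counts the design had assumed and were used without rounding. FPKM, TPM and the coverage of transcripts and exons were made by the authors with StringTie 1.3.4d on IRGSP-1.0, per the file headers from HISAT alignments, while the study's methods name TopHat. Where CPM is given, it was scaled by TMM. The 24383 genes that passed filterByExpr were fitted by edgeR 4.0.16 (R 4.3.3) with a mean per group. Alternatives used DESeq2 1.42.0, limma 3.58.1, other filters, scalings, exons and subsets of libraries, and the counts without the 3′-most exon, chosen once the coverage of CATA had been seen. Each edgeR fit to other exons, filters or libraries set library totals and scaling anew. The library totals give small counting errors for all 9 genes. Methods were checked on simulated data. Python 3.11.15 drew the figures.

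All 9 genes are named. From each list, at most 3 called genes with the largest change in a comparison are named, as well as the 2 genes closest in profile to each of the 9. The genes and lists were chosen with earlier results of these data known. Identifiers of list genes were checked against the deposited descriptions, which were also searched by keyword, and no catalase gene beyond CATA, CATB and CATC was found.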

Additional observations from a re-analysis of the deposited data

Results flagged for a closer look

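The change in *OsGRP3*-OE and the change in *OsGRP3*-KD, each against the NT plants of its cultivar, differed by edgeR's test of the difference at an adjusted p under 0.05 for 5 of the 9 genes and for *OsGRP3*. On the log2 scale the difference, *OsGRP3*-OE minus *OsGRP3*-KD, was -2.23 for CATA, 1.10 for CATC, -0.66 for APX1, -0.80 for Mn-SOD, -0.49 for CATB and 0.77 for *OsGRP3*. The NT Dongjin libraries enter each of these values, and their even coverage cannot be told apart from the knockdown. Groups of 2 libraries are too small for a test of single outlying libraries.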

How the results depend on the processing

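With 2 libraries a group, calls rest on a spread shared across genes. Calls in *OsGRP3*-KD against NT Dongjin were 2 and fell to 0 with the 3′-most exon only, as did those for the difference between the lines. At any size, 6, 5 and 8 genes passed in *OsGRP3*-KD, for the difference and in NT Dongjin against NT Nakdong, and 3 in each with quantile-normalized FPKM gene by gene. Without the 3′-most exon 8 passed for the difference. NT Dongjin against NT Nakdong had 1 call, and 2 with limma on FPKM under its 3 settings or without the 3′-most exon. With each replicate left out, called genes were 2 in *OsGRP3*-KD, 1 to 2 for the difference, 1 to 2 in NT Dongjin against NT Nakdong and 0 in the other comparisons, and genes at any size were 3 to 8, 3 to 6, 6 to 8, 0 to 1 (*OsGRP3*-KD against NT Nakdong) and 0 (*OsGRP3*-OE).

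Log2 fold changes that turned sign were small in the fit to all counts. In *OsGRP3*-OE they were APX2 at -0.0258 with quantile-normalized FPKM. In *OsGRP3*-KD against NT Dongjin they were Os03g0351500 at -0.0864 with quantile-normalized FPKM and -0.0060 with the 3′-most exon, and *OsGRP3* at 0.0352 without it. In NT Dongjin against NT Nakdong they were Os07g0665200 at 0.02 with limma (0.0161, 0.0161 and 0.0162 under its 3 settings), 0.21 with quantile-normalized FPKM and 0.17 with the 3′-most exon. In *OsGRP3*-KD against NT Nakdong they were CATA at 0.02 with limma (0.0207, 0.0207 and 0.0207) and 0.0196 without the 3′-most exon, and APX1 at -0.0019 with median-of-ratios size factors, -0.0020 with DESeq2, -0.01 with quantile-normalized FPKM (-0.0141) and with the 3′-most exon (-0.0117). With each replicate left out, values that turned sign ranged from -0.32 to 0.0075 for CATC, -0.0109 to 0.0805 for APX2 and -0.12 to 0.25 for Os07g0665200 in *OsGRP3*-OE, from -0.0262 to 0.24 for Os03g0351500 in *OsGRP3*-KD, from -0.0521 to 0.0364 for Os07g0665200 in NT Dongjin, and from -0.30 to 0.35 for CATA and -0.25 to 0.25 for APX1 in *OsGRP3*-KD against NT Nakdong. The cause of these turns was not tested, and each fit to part of the exons or libraries also set the scaling anew.

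Deviations of same-numbered libraries had correlations of -0.03 in Nakdong and -0.0006 in Dongjin, so no pairing by replicate number was seen. Groups of 2 libraries give a single deviation each, so this cannot exclude a step shared by same-numbered libraries. The last exon of CATA was covered in the second libraries of NT Nakdong, *OsGRP3*-KD and NT Dongjin, though not of *OsGRP3*-OE, and was nearly empty in every first library. A replicate block within each cultivar changed no call of the 9 genes and turned the sign of Os07g0665200 in NT Dongjin against NT Nakdong (0.0297) and of CATA (0.0129) and APX1 (-0.125) in *OsGRP3*-KD against NT Nakdong.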
